A study of Mus musculus with 6 samples.

Results

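The AP-1 transcription factors were followed through 10 genes in hearts of mice lacking cyclophilin D and of wild-type (WT) mice: Fos, Fosb, Fosl1, Fosl2, Jun, Junb, Jund, Atf3, Batf and Maff. A gene entered through each probe set of the array that carried its symbol and no other, which gave 1 probe set for each of the 10 genes, of 19938 genes measured that way. The array held 35557 probe sets, of which 23410 had a gene symbol. The 6 samples were whole hearts of mice aged 8 weeks, 3 Ppif-/- and 3 WT, each on 1 Affymetrix Gene 1.0 ST array, which reads a transcript through many probes. The Ppif-/- mice carried a knockout in the whole body and had been backcrossed to C57BL/6 from Sv129, and the WT mice were C57BL/6. No treatment is named for either group. Because the deletion was global and the organ was taken whole, the cell type behind a change was not resolved, and more cells of a type and more RNA per cell cannot be told apart. The study set out to find transcripts that differ before the heart fails.

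AP-1 is a dimer of basic leucine zipper (bZIP) proteins. Fos proteins pair only with partners of other families, above all Jun proteins, while Jun proteins can also pair with each other, and the dimers bind a short palindromic DNA site. Fos, Fosb, Jun, Junb and Atf3 are immediate early genes, transcribed within minutes of a stimulus such as growth factors, stretch, calcium entry or ischaemia and silent again soon after, and in the heart they respond to haemodynamic load and to reperfusion. The choice of partner sets the outcome, since some dimers activate and others repress.

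Values are log2 expression as deposited, after RMA, and a difference is Ppif-/- minus WT. A gene was called when its Benjamini-Hochberg adjusted p in limma was under 0.05, with adjustment over all 23410 tested probe sets. The labels number the hearts as separate samples and do not say whether animals shared a litter. Ppif, the deleted gene, stood at 6.00, 6.25 and 6.44 in the Ppif-/- hearts and at 11.44, 11.28 and 11.49 in the WT hearts, a 36.0-fold lower level (adjusted p = 2.97e-06). Array medians lay between 6.03 and 6.11, no pair of arrays was identical, and the number of arrays, 3 per group, limits the precision of every value. In each group 1 heart stood apart. Ppif-/- heart 1 lay more than 1 log2 unit above both others of its genotype in 37 probe sets, and WT heart 2 in 27, against 0 to 1 for each other heart, so results that rest on either are given without it. The 8 markers of heart muscle cells had a mean of 13.61 to 13.62 in Ppif-/- and 13.60 to 13.65 in WT hearts. Of them Ryr2, chosen after its value was seen, lay lower without overlap (12.61 to 12.69 against 12.83 to 12.89, unadjusted p = 0.0167 and adjusted p = 0.248 in limma), and the other 7 lay between 12.87 and 14.24, near the highest value on the arrays (14.63).

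Among the AP-1 genes, 2 of 10 were called higher in Ppif-/- hearts and 0 lower. They were Junb and Fosl2. Of all tested probe sets, 0.624% were called higher and 0.461% lower. In 7 of the 10 genes every Ppif-/- heart lay above every WT heart, a pattern found in 9.21% of all tested probe sets, and in 0 of the 10 the groups were separated the other way (10.6% of all). At an unadjusted p under 0.05, 6 AP-1 genes lay higher and 0 lower, against 6.1% and 6.81% of all tested probe sets, and 12.9% in either direction. The median difference of the 10 genes was 0.44, and that of all tested probe sets was -0.002.

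**Figure D1:**
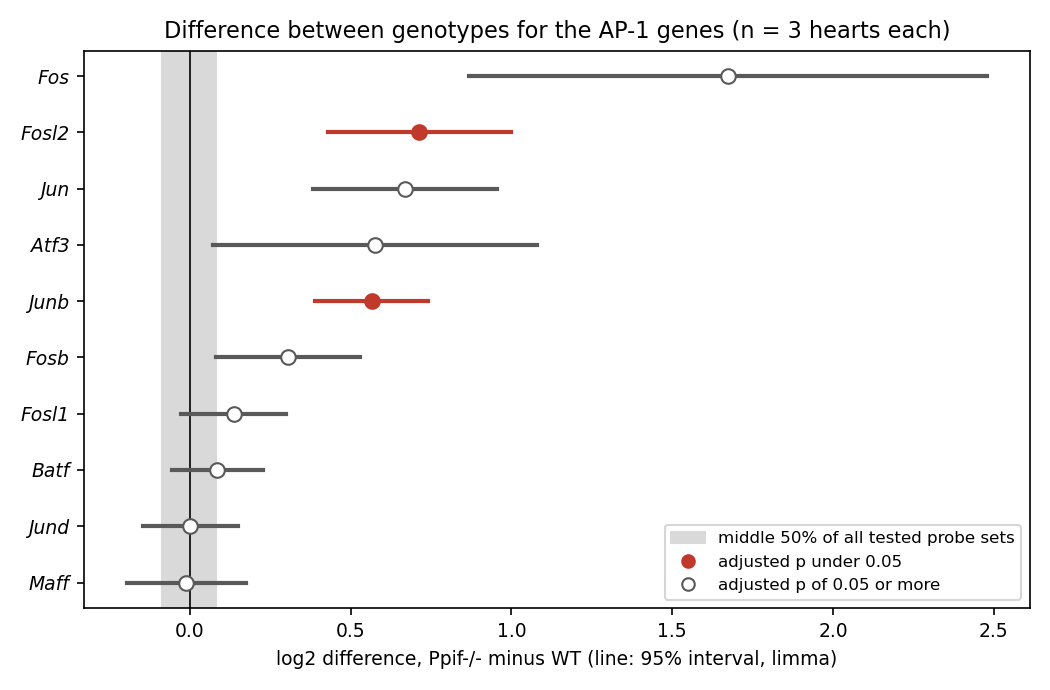
Log2 difference between Ppif-/- and WT hearts for the 10 AP-1 genes, with the 95% interval of the limma fit (n = 3 hearts per genotype); the grey band holds the middle part (lower to upper quartile) of all tested probe sets and filled points passed the adjusted threshold. Fos has the largest difference (1.67) and the widest interval, Junb and Fosl2 passed, and Jund and Maff lie near 0.

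By a looser rule, an unadjusted p under 0.01 together with an absolute difference of 0.5 or more, 4 of the 10 genes were taken (Fos, Jun, Junb and Fosl2), against 1.69% of all tested probe sets, all 4 of them higher, against 0.953% of all. The promoters of these 4 are printed to show which of the motifs named next lie just before their starts. Each run holds the 250 bases before the start of the gene, 5' to 3' on the gene's own strand, from RefSeq on GRCm38.p6. Capitals mark matches to the motifs searched on both strands, which were the AP-1 site (TGACTCA or TGAGTCA), the core of the cyclic AMP response element (TGACG), the CArG box bound by serum response factor, CCAAT, the GC box GGGCGG and TATAAA. The runs are chr12:85473640-85473889 (plus strand) for Fos, chr5:32136222-32136471 (plus strand) for Fosl2, chr4:95052223-95052472 (minus strand) for Jun and chr8:84978749-84978998 (minus strand) for Junb.
Fos: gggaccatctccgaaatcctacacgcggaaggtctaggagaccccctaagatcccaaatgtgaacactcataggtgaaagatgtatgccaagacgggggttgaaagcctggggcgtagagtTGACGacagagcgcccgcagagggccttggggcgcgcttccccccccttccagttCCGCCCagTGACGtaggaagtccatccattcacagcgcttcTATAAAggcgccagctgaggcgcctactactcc
Fosl2: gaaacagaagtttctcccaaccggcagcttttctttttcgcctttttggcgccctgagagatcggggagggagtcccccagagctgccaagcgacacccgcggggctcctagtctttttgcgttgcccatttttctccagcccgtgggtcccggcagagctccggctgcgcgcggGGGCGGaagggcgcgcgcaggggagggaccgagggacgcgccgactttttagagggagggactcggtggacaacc
Jun: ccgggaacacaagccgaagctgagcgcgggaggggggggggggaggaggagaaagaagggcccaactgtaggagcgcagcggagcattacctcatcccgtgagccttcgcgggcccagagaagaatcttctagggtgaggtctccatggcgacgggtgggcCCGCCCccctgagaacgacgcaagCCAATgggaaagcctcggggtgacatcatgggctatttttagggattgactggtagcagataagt
Junb: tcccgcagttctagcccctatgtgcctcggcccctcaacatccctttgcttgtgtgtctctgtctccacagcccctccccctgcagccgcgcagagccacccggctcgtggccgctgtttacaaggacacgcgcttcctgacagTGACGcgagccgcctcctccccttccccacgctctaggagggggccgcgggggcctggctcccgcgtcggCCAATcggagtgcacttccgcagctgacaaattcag

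These 4 promoters shared no single motif of those searched. The Fos promoter held TGACG starting 129 and 66 bases before the gene start, a GC box at 74 and TATAAA at 33. The Junb promoter held TGACG at 106 and CCAAT at 36, the Jun promoter CCGCCC, the reverse complement of the GC box, at 89 and CCAAT at 65, and the Fosl2 promoter a GC box at 75. RefSeq entries matched 9 of the 10 genes, with 11 promoters in all since Maff had 3. The core TGACG was found in 6 of the 9 genes, namely Fos, Fosb, Junb, Atf3, Batf and Maff. Counted by promoter, it was found in 7 of the 11, against 17.8% of 32851 promoters of the same length. The GC box was found in 7 of the 9 genes and 8 of the 11 promoters, against 32.7% of all promoters. CCAAT was found in 2 of the 11 promoters, against 33.9%, and TATAAA in 1 of the 11, against 12.4%. The AP-1 site and the CArG box were found in 0 of the 11, against 4.46% and 1.47% of all promoters. The GC content was 58.4% before Fos, 64.4% before Fosl2, 61.2% before Jun and 66.4% before Junb, against a median of 52.4% over all promoters. Genes outside these 4 lay both above and below them, with 68.8% before Fosb, 65.2% before Atf3, 48.0% to 64.0% before the 3 starts of Maff, 47.6% before Jund and 46.4% before Batf. A match is a run of letters and not a measured binding site. A missing match speaks only for this window and for the exact letters searched, since variant forms of a site were not searched. The Jund window held 0 of the motifs searched.

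Fos, the founding member of the Fos family and a strong activator once paired with Jun, had the largest difference of the 10 genes. It stood at 8.82, 7.82 and 7.44 in the Ppif-/- hearts and at 6.83, 6.16 and 6.06 in the WT hearts. Every Ppif-/- heart lay above every WT heart, with heart 1 far above the other Ppif-/- hearts and heart 1 the highest of the WT hearts. The difference was 1.67 ± 0.35 (SE), or 3.19-fold (95% interval 1.83 to 5.57). By size it ranked 23 among the positive differences of all tested probe sets. Fos did not pass (adjusted p = 0.0795), and its spread was wide in both groups (SD 0.71 in Ppif-/- and 0.42 in WT hearts).

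Fosl2 (Fra-2), a Fos relative that lacks the strong activation domain of Fos and is induced later, rose in Ppif-/- hearts. Its values were 9.07, 8.63 and 8.79 in the Ppif-/- hearts and 8.07, 8.01 and 8.27 in the WT hearts. The groups did not overlap, with a gap of 0.36 between the lowest Ppif-/- and the highest WT heart. The difference was 0.71 ± 0.12, or 1.64-fold (95% interval 1.35 to 2.00, adjusted p = 0.0457). The call was lost without any 1 of the 6 hearts (adjusted p = 0.0512 without Ppif-/- heart 2 to 0.149 without WT heart 1). With 1 heart fewer, the calls over all tested probe sets also fell, from 254 to between 131 and 171. The loss therefore cannot show that the Fosl2 call rested on each heart. The Fosl2 call was also lost when all 35557 probe sets were tested (0.141).

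Fosb, whose protein resembles Fos and which also gives the truncated form known as delta-FosB, stood at 6.20, 5.85 and 6.05 in the Ppif-/- hearts and at 5.73, 5.67 and 5.79 in the WT hearts. The groups were separate by 0.06 only, and the difference of 0.30 ± 0.10 did not pass (adjusted p = 0.229, 95% interval 0.08 to 0.53). Fosl1 (Fra-1), the other Fos relative without a strong activation domain, was at 5.32, 5.29 and 5.31 in the Ppif-/- hearts and at 5.18, 5.08 and 5.25 in the WT hearts. Its groups were separate by 0.04, and the difference of 0.14 had an interval from -0.03 to 0.30. Both probe sets were dim. The mean of Fosl1 over the 6 hearts lay at percentile 28.7 of the tested probe sets and that of Fosb at percentile 39.6, and RMA compresses differences at low signal.

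Junb, a Jun family member that can damp the activity of Jun and is induced with it, rose in Ppif-/- hearts with the smallest p of the 10 genes. Its values were 7.34, 7.34 and 7.35 in the Ppif-/- hearts and 6.82, 6.65 and 6.86 in the WT hearts. The Ppif-/- hearts were almost equal (SD 0.01, against 0.11 in WT hearts), and the groups were separate by 0.48. The difference was 0.57 ± 0.08, or 1.48-fold (95% interval 1.31 to 1.67, adjusted p = 0.0148). The call was lost without Ppif-/- heart 1 (adjusted p = 0.0511), Ppif-/- heart 2 (0.0690), Ppif-/- heart 3 (0.0719) or WT heart 1 (0.0563), and when all probe sets were tested (0.0593). It was kept without WT heart 2 (0.0336) or WT heart 3 (0.0382).

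Jun, the Jun family member with the strongest activation and the target of the JNK kinases, stood at 10.27, 10.06 and 9.75 in the Ppif-/- hearts and at 9.41, 9.32 and 9.35 in the WT hearts. The WT hearts were close together (SD 0.05) and the Ppif-/- hearts were spread (SD 0.26), with all of them above the WT hearts. The difference of 0.67 ± 0.12, or 1.59-fold (95% interval 1.30 to 1.94), did not pass (adjusted p = 0.0582). It did pass without Ppif-/- heart 3, the lowest of its group (0.0222), with quantile normalisation (0.0450), with centred arrays (0.0486), on the brighter probe sets (0.0307), with array weights (0.0249) and with a variance trend (0.0213). It did not pass in the other 10 of 16 alternative settings. Among these were all probe sets tested (0.165), robust eBayes (0.0622), the replicate number as a block (0.0752) and leaving out any other single heart (0.0950 to 0.178). Jund, the family member that is expressed steadily in resting cells, stood at 8.95, 8.97 and 8.97 in the Ppif-/- hearts and at 8.94, 9.02 and 8.92 in the WT hearts. The groups overlapped, and the 95% interval of the difference ran from -0.15 to 0.15 on the log2 scale, or from 0.904 to 1.11 as a ratio.

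**Figure D2:**
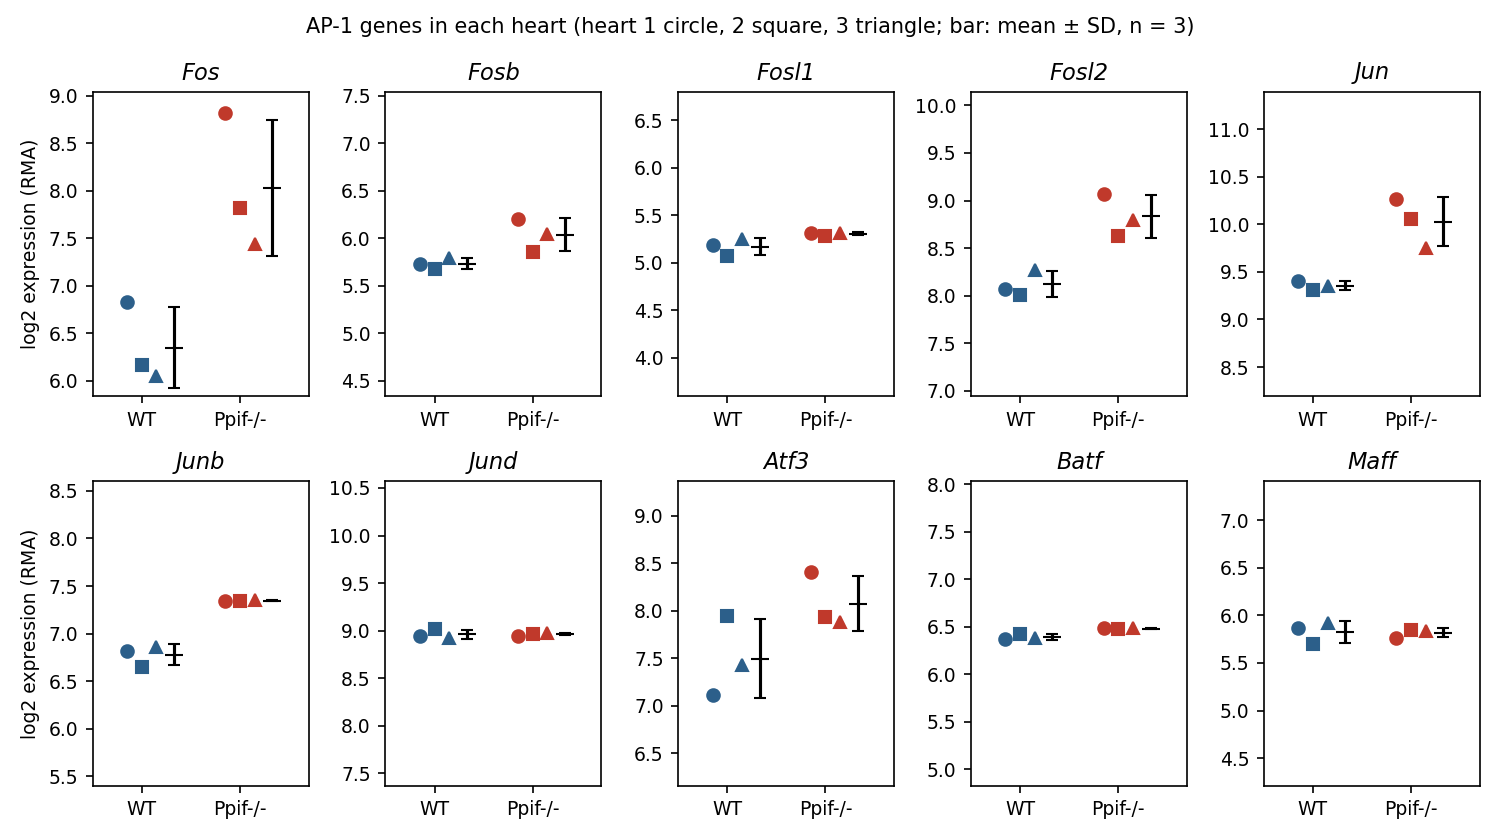
Log2 expression of each AP-1 gene in each heart, WT in blue and Ppif-/- in red, with the mean and SD of 3 hearts beside the points; every panel spans the same range of log2 values. Fos, Fosl2, Jun and Junb have all 3 Ppif-/- hearts above all 3 WT hearts, Atf3 overlaps between genotypes, and Jund and Maff lie near 0 in their difference.

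Atf3, a stress-induced bZIP factor that pairs with Jun proteins and mostly represses, overlapped between the genotypes. It stood at 8.40, 7.93 and 7.88 in the Ppif-/- hearts and at 7.12, 7.94 and 7.43 in the WT hearts, so that WT heart 2 lay above 2 of the Ppif-/- hearts. The difference was 0.58 ± 0.22 (95% interval 0.07 to 1.08, adjusted p = 0.317). The difference was close to that of Junb, with a wider standard error (0.22 against 0.08). Batf, a factor of immune cells that pairs with Jun proteins and lacks an activation domain, was at 6.49, 6.47 and 6.48 in the Ppif-/- hearts and at 6.37, 6.43 and 6.38 in the WT hearts. The groups were separate by 0.05, and the interval of the difference ran from -0.06 to 0.23. Maff, a small Maf protein that pairs with Fos and with NRF2, was at 5.76, 5.85 and 5.84 in the Ppif-/- hearts and at 5.86, 5.70 and 5.92 in the WT hearts. The genotypes overlapped, with an interval from -0.19 to 0.17.

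Relatives were compared by the difference between their log2 values within each heart, compared in turn between the genotypes. Fosb minus Fos was -2.62, -1.96 and -1.39 in the Ppif-/- hearts and -1.11, -0.49 and -0.27 in the WT hearts, a difference of -1.37 between the genotypes (exact permutation test, 2-sided, p = 0.1). The dim Fosb probe set, where RMA compresses differences, sits on one side of this contrast. Jund minus Jun was -1.32, -1.09 and -0.78 in the Ppif-/- hearts and -0.46, -0.30 and -0.42 in the WT hearts, a difference of -0.67 (exact p = 0.1). In both pairs the genotypes did not overlap, and 0.1 is the smallest p that 3 hearts against 3 allow. Fosl2 minus Fos overlapped between the genotypes (a difference of -0.96, exact p = 0.2), as did Junb minus Jun (-0.10, exact p = 0.6). Adjusted over these 4 contrasts, the exact p-values were 0.2, 0.2, 0.267 and 0.6, so none passed.

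The hearts of the knockout group did not carry the change equally. Relative to the WT mean, Ppif-/- heart 1 had a median over the 10 genes of 0.52, heart 2 of 0.28 and heart 3 of 0.35, and the WT hearts had medians of 0.005, -0.08 and 0.03. Heart 1 was the highest of the 6 hearts for 7 of the 10 genes, namely Fos, Fosb, Fosl1, Fosl2, Jun, Atf3 and Batf, by under 0.01 for Fosl1 and Batf. Without it, the difference of Fos was 1.28 (adjusted p = 0.0887), that of Jun 0.55 (0.0950) and that of Atf3 0.41 (0.498). Junb, by contrast, was almost equal in the 3 Ppif-/- hearts, as given above. Without WT heart 2, the difference of Fos was 1.58 (adjusted p = 0.213), that of Fosl2 0.66 (0.132), that of Jun 0.65 (0.152), that of Junb 0.50 (0.0336) and that of Atf3 0.80 (0.150).

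**Figure D3:**
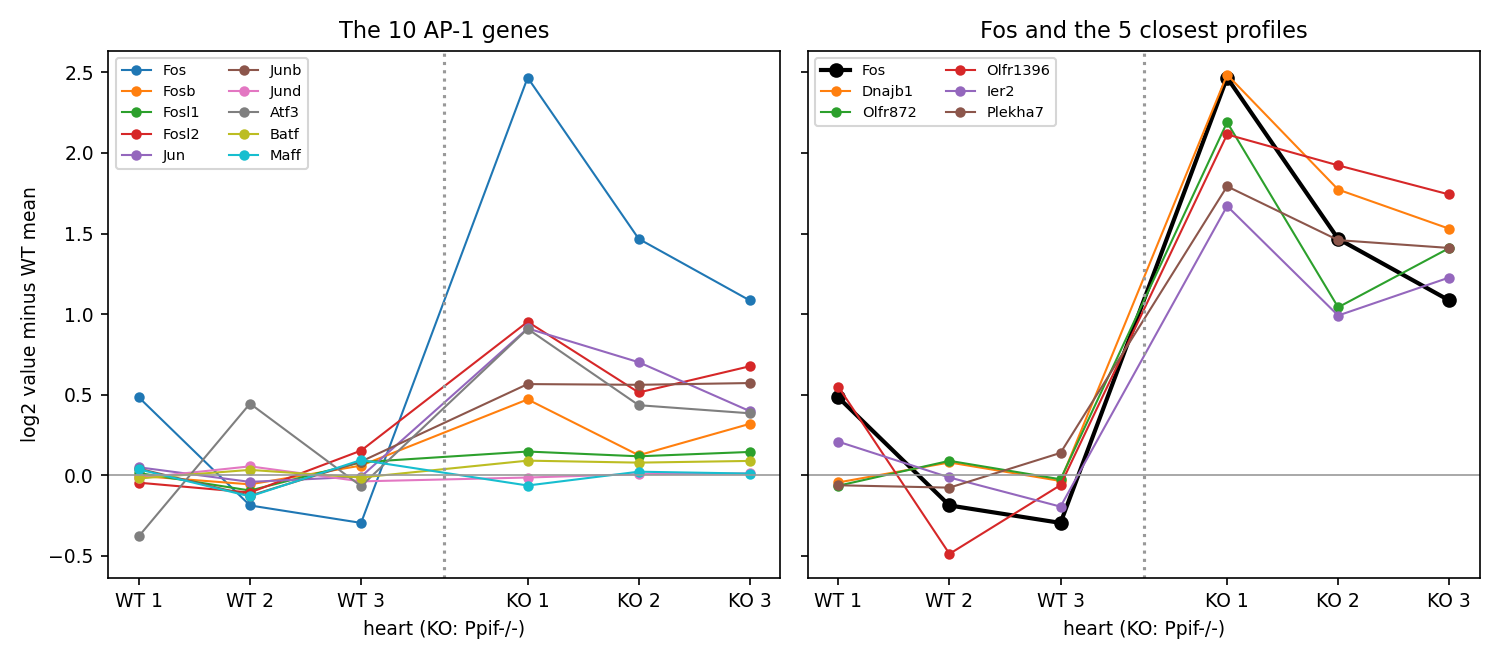
Log2 value minus the WT mean in each heart, for the 10 AP-1 genes (left) and for Fos with the 5 probe sets whose profile was closest to it (right). Lines only join the points of a gene, and the labels state no order of the hearts. Fos reaches 2.47 in Ppif-/- heart 1 and 1.09 in heart 3, and Dnajb1 follows it most closely.

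The 5 profiles most like that of Fos were sought among 21779 other probe sets with 1 symbol, by the root mean square difference over the 6 hearts of values relative to the WT mean. The closest was Dnajb1 (0.34 log2 units), a heat shock cochaperone. It stood at 9.75, 9.04 and 8.80 in the Ppif-/- hearts and at 7.22, 7.35 and 7.23 in the WT hearts, the same order of Ppif-/- hearts as for Fos. The difference of Dnajb1 was 1.93 ± 0.22, and 1.65 to 2.13 without single hearts. The others were the olfactory receptor genes Olfr872 (0.37) and Olfr1396 (0.39), the immediate early gene Ier2 (0.41) and Plekha7 (0.42), which encodes a protein of cell junctions. Since they were picked for likeness to a gene that lay 1.67 higher, their own differences, from 1.30 for Ier2 to 1.93, follow from the choice and are given as a description. Olfr872 was a dim probe set, with a mean of 2.92 in WT hearts. Of the AP-1 genes, Jun (0.79) and Fosl2 (0.80) were nearest to Fos, with 102 and 107 other probe sets nearer, since their differences were smaller.

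Related bZIP factors outside the 10 genes centred near 0. Of 10 measured factors that can pair with Fos or Jun proteins or belong to the ATF and Maf groups, 0 were called in limma. At an unadjusted p under 0.05, 1 lay higher (10%, against 6.1% of all tested probe sets), and the median difference was 0.02. That 1 was Jdp2, a repressor that pairs with Jun proteins, at 7.28, 7.20 and 7.28 in the Ppif-/- hearts and 6.92, 7.02 and 7.08 in the WT hearts (0.25 ± 0.07, adjusted p = 0.186). Jdp2 is the 1 protein-coding gene between Fos and Batf on chromosome 12 in the gene table of GRCm38.p6, and the differences in that order were 1.67, 0.25 and 0.09. The retinal Maf factor Nrl had the next smallest p, at -0.16.

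Transcripts of genes that act upstream of AP-1 centred near 0 as well. Of 19 measured kinases and regulators, 0 were called in limma, and the median difference was -0.03. At an unadjusted p under 0.05, 2 lay higher (10.5%, against 6.1% of all tested probe sets). These were the JNK isoform Mapk10 (0.47 ± 0.09, adjusted p = 0.0612), at 8.72 to 8.83 in Ppif-/- and 8.17 to 8.47 in WT hearts, and the RSK kinase Rps6ka3 (0.32 ± 0.09, adjusted p = 0.193). Mapk10 had 2 probe sets, of which only the brighter is given here. Of 13 factors known to bind the Fos or Jun promoters, 0 were called in limma, with a median of -0.08. At an unadjusted p under 0.05, 1 lay higher (7.69%, against 6.1% of all) and 2 lower (15.4%, against 6.81%). Srf, serum response factor, lay at 9.29, 9.45 and 9.34 in the Ppif-/- hearts and at 9.62, 9.74 and 9.63 in the WT hearts (-0.30 ± 0.07, adjusted p = 0.135), and the ternary complex factor Elk3 at -0.19. Transcript amounts of kinases do not report their activity, which was not measured.

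Of 27 measured genes described as AP-1 targets, 0 were called in limma. At an unadjusted p under 0.05, 8 lay higher (29.6%, against 6.1% of all tested probe sets) and 2 lower (7.41%, against 6.81%). The groups were separate upwards in 8 (29.6%, against 9.21% of all) and downwards in 2 (7.41%, against 10.6%). The median difference was 0.04. The natriuretic peptide gene Nppa stood at 12.17, 12.06 and 11.97 in the Ppif-/- hearts and at 11.24, 11.70 and 11.23 in the WT hearts (0.68 ± 0.13, adjusted p = 0.0681). It passed without WT heart 2, the highest WT heart (0.83, adjusted p = 0.0138), and did not pass without any other single heart (0.161 to 0.195). The chemokine gene Ccl2 was at 6.29 to 6.57 in Ppif-/- and 5.78 to 6.01 in WT hearts (0.50 ± 0.10, adjusted p = 0.0749). Nppb, the other natriuretic peptide of the list, chosen after its value was seen, lay the other way at -0.97 ± 0.27 (adjusted p = 0.183), with genotypes that overlapped. Mt2, a metallothionein gene chosen after its value was seen, had a difference of -0.94, which was -0.14 without WT heart 2, at 11.26 against 8.75 and 8.93 in the other WT hearts.

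**Figure D4:**
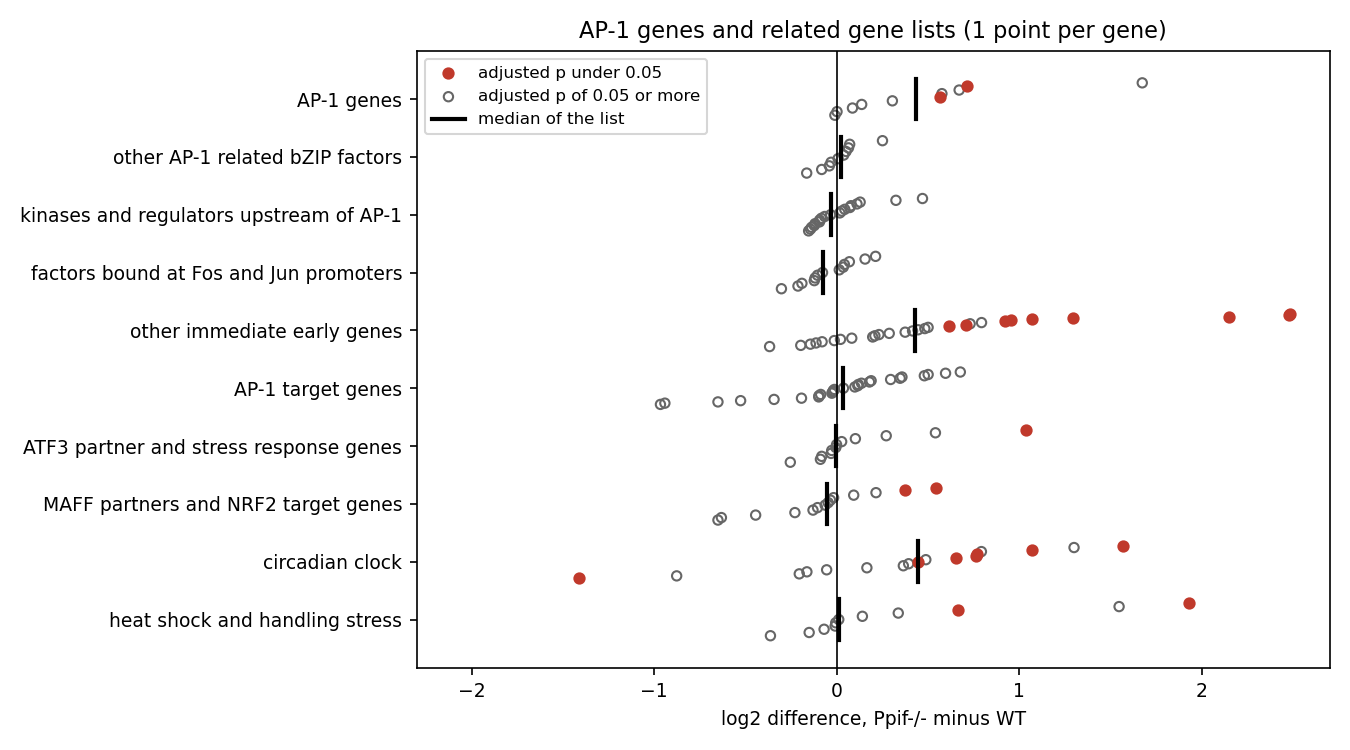
Log2 difference between Ppif-/- and WT hearts for each measured gene of the AP-1 genes and 9 related lists, with filled points past the adjusted threshold and a bar at each list's median. The medians of the AP-1 genes (0.44), other immediate early genes (0.43) and clock genes (0.45) lie to the right of 0. Clock genes lie on both sides, and AP-1 relatives, upstream kinases and targets have medians near 0.

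Of 12 genes that pair with Atf3 or belong to its stress response, 1 was called higher, against 0.624% of all tested probe sets. It was the asparagine synthetase gene Asns (1.04 ± 0.10, adjusted p = 0.00305), and the median of the list was -0.003. Its known activator Atf4, chosen after its value was seen, had a mean of 8.16 in both genotypes. That value is a transcript level, and the amount and activity of the Atf4 protein were not measured. Whether Atf4 had a part in the Asns difference was not tested. Xbp1, a factor of the unfolded protein response, was at -0.25 (adjusted p = 0.251). Of 14 partners of the small Maf proteins and NRF2 target genes, 2 were called higher, against 0.624% of all tested probe sets, and the median was -0.06. These were Nfe2l2, which encodes NRF2 (0.54 ± 0.08, adjusted p = 0.0216), and its target Nqo1 (0.37 ± 0.07, adjusted p = 0.0493). Without 1 heart, the call of Nfe2l2 was lost unless that heart was Ppif-/- heart 1 (adjusted p = 0.0517 to 0.0959), and that of Nqo1 was lost whichever it was (0.0998 to 0.176). Other NRF2 targets of the list, chosen after their values were seen, lay the other way and did not pass. These were Hmox1, which encodes haem oxygenase (-0.65), Gclm, a subunit of the enzyme that starts glutathione synthesis (-0.63), Srxn1 (-0.44) and Txnrd1 (-0.23). WT heart 2 was the highest of the 6 hearts in 7 of the 14 genes. It stood at 10.58 for Hmox1, against 7.18 and 7.27 in the other WT hearts and 7.50 to 7.83 in the Ppif-/- hearts, and at 10.54 for Gclm, against 8.76 and 8.79 in the other WT hearts. Without it the difference of Hmox1 turned to 0.47 (adjusted p = 0.176), and those of Gclm, Srxn1 and Txnrd1 were -0.04, -0.13 and -0.08.

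Other groups differed beside the AP-1 genes, and their part in the AP-1 result was not tested. For the counts of calls that follow, 0.624% of all tested probe sets were called higher and 0.461% lower. Of 28 other immediate early genes, 9 were called higher and 0 lower, with a median of 0.43, among them Egr1 (2.48), Egr2 (2.48), Nr4a1 (2.15) and the phosphatase gene Dusp1 (0.95). The spread of these 4 genes across the Ppif-/- hearts was compared after the values were seen. Egr1 and Nr4a1 were even (8.47 to 8.69 and 10.86 to 11.10), and Egr2 was less so (8.44, 7.78 and 8.27). The SD was 0.11 for Egr1, 0.12 for Nr4a1, 0.17 for Dusp1 and 0.34 for Egr2, against 0.71 for Fos. Of 17 clock genes, 6 were called higher, among them Dbp (1.57), Bhlhe40 (0.77), Bhlhe41 (0.65) and Per1 (1.07), which is also 1 of the 9 immediate early calls. Clock genes moved both ways. At an unadjusted p under 0.05 in limma, 10 lay higher (58.8%, against 6.1% of all tested probe sets) and 3 lower (17.6%, against 6.81%). The 1 called lower was Arntl (BMAL1), a core activator of the clock, at 6.30, 7.39 and 6.64 in the Ppif-/- hearts and 8.17 to 8.22 in the WT hearts (-1.41 ± 0.24, adjusted p = 0.0418). It was named after its value was seen, and its call was kept without Ppif-/- heart 2 alone (adjusted p = 0.0639 to 0.159 without each of the others). The labels do not give the hour of collection, and its part in the clock differences was not tested. Leaving out WT heart 1 ended the Per1 call (adjusted p = 0.0511), and the Bhlhe41 call was kept without Ppif-/- heart 2 alone (0.0507 to 0.0841 without each of the others). Of 11 genes of heat shock and cold response, 2 were called higher, Dnajb1 and the cold-inducible Rbm3 (0.67 ± 0.08), with a median of 0.01. Rbm3 had 3 probe sets, of which only the brightest is given here. Hspa1a, the inducible HSP70 gene, chosen after its value was seen, was at 10.09, 8.26 and 7.83 in the Ppif-/- hearts and 6.78, 7.63 and 7.12 in the WT hearts (1.55 ± 0.53, adjusted p = 0.266). It was highest in Ppif-/- heart 1, as Fos was, and its difference without that heart was 0.87 (adjusted p = 0.220).

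Among markers of other cell types, macrophage genes had a mean of 8.39 to 8.52 in Ppif-/- and 8.34 to 8.37 in WT hearts, with 1 of 8 called higher (Cd68, 0.56). The macrophage genes did not move together, since Cd163 lay at -0.53 (adjusted p = 0.0964) and Csf1r at -0.10 (0.550), both lower without overlap and both chosen after their values were seen. Smooth muscle and pericyte genes had a mean of 9.56 to 9.62 against 9.73 to 9.87, with 1 of 8 called lower (Tagln, -0.51). They did not move together either. Rgs5 was the 1 gene of the 8 above 0 (0.27, adjusted p = 0.129 in limma) and lay higher without overlap. Pdgfrb and Kcnj8 were both at -0.01, and these genes were chosen after their values were seen. Fibroblast genes overlapped (9.65 to 9.83 against 9.56 to 9.80), with 1 of 8 called lower (Pdgfra, -0.44). The collagen genes Col3a1 (0.38, no overlap), Col1a2 (0.27) and Col1a1 (0.21), chosen after their values were seen, lay the other way and did not pass, and were at 0.10, 0.13 and 0.09 without WT heart 2. The calls of Cd68, Tagln and Pdgfra were lost without any 1 heart (adjusted p = 0.0537 to 0.145). Endothelial genes overlapped, with 0 of 8 called in limma. Neutrophil and B cell genes were dim and lay lower in the mean (4.56 to 4.74 against 4.76 to 5.20, and 4.92 to 5.16 against 5.21 to 5.27), with 0 called of 6 and 4. Of 9 skeletal muscle genes, 1 was called lower (Myl1, -1.44), and the other 8 lay between -0.11 and 0.14. The list's mean was 7.18 to 7.22 against 7.34 to 7.39 with Myl1, and overlapped without it (7.32 to 7.40 against 7.33 to 7.37), a split made after the values were seen. Atrial genes lay at 6.58 to 6.77 against 6.39 to 6.45, with 0 of 5 called, a list that holds Nppa. Nppa was the 1 gene of the 5 that lay higher without overlap (20%, against 9.21% of all tested probe sets), and the others overlapped. Red blood cell, T and NK cell, adipocyte and nerve lists had 0 called of 2, 7, 5 and 5 in limma. Calls over all tested probe sets were 0.624% higher and 0.461% lower.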

How the data were processed

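The authors deposited log2 expression for each probe set, made with RMA per the submitters' processing notes, and 0 columns lacked a sample. RMA's software, version and filters, detection calls and scan dates: not given in the sources used here. No batch could therefore be tested. Names came from the platform annotation, brought up to the GRCm38.p6 gene table through Entrez identifiers (21698 of 21789 with 1 symbol matched). The 23410 probe sets with a symbol were fitted by genotype alone in R 4.3.3 using limma 3.58.1 (lmFit, then eBayes, 2-sided). In gene lists, the probe set with the highest mean stood for a gene, and genes not measured by a probe set with 1 symbol were not analysed here. The genes and lists were chosen with earlier results of these data known. Named genes were the 10 members, Ppif, up to 4 called genes of each pathway list, ordered by p (its first 2 by p if the list had under 2 calls), cell type markers past it, and the 5 profiles closest to Fos. Genes named outside this rule are said to be chosen after their values were seen. The fit was tested on simulated data with independent noise in each probe set. These held no hearts that stand apart, so the test cannot speak for that feature of the real arrays. Alternatives were a replicate block, other sets of probe sets, normalisations and variance models, array weights, a looser rule and leaving out each heart. The limma p-values set a difference against the variation between these hearts. In that fit the variance of each probe set is drawn towards a value shared over the probe sets tested.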

Additional observations from a re-analysis of the deposited data

How the results depend on the processing

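The count of 2 AP-1 genes past the threshold was unsteady. It was 4 with arrays centred on their medians, with a variance trend (both adding Fos and Jun) and by the looser rule on the unadjusted p and size. It was 3 on the brighter probe sets, with quantile normalisation and with array weights, 2 in the other sets with symbols and with robust eBayes, 0 when all probe sets were tested, and 0 to 1 without single hearts. Under these settings 0 AP-1 genes were called lower in limma. The count over all probe sets, 254 in the main setting, was 405 on the brighter probe sets, 131 over the whole table, 453 with a variance trend, 386 with array weights, 396 by the looser rule and 131 to 171 without single hearts. With the replicate number as a block it was 160, and 1 AP-1 gene was called, Fos (adjusted p = 0.00738). The labels do not say whether hearts of the same number were linked. Deviations of same-numbered hearts correlated at -0.08, -0.06 and 0.12 across probe sets, and not every heart correlated best with its own number. Correlations over all probe sets cannot decide whether a link acted on few genes. Fos fell from heart 1 to heart 3 in both genotypes, and its SE was 0.348 in the main setting and 0.123 with the block. Fos, Fosb, Fosl1, Fosl2, Jun, Junb, Atf3 and Batf kept their direction in each setting that tested them (Fosb, Fosl1 and Batf were not among the brighter probe sets). Jund, at 0.002, turned to -0.017 with centred arrays and ranged from -0.017 to 0.029 without single hearts, and Maff, at -0.01, ranged from -0.076 to 0.037. The contrast of Junb with Jun ranged from -0.24 to 0.017 without single hearts, turning without Ppif-/- heart 1. The cause of these shifts was not tested. Testing all probe sets changed both the number of tests and the pooled variance (the SE of Fosl2 went from 0.123 to 0.133 and that of Fos from 0.348 to 0.384). Signal limits the dim genes Fosl1, Maff and Fosb, for which no detection calls were given.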
